A study of Homo sapiens with 12 samples.

Results

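The genes described here handle fatty acids and their stores in the human colorectal carcinoma line HCT116 and were listed by symbol: LIPG, PNPLA2, FABP5, FABP6, ACSL1, ACSL5, CPT1A, DGAT1, PLIN2 and PLIN3. All 10 were found among the 18969 genes of the deposited tables, and all 10 had enough counts to be among the 12741 genes tested. LIPG and FABP6 were picked for their rises in recovering cells. Their values against 0 h and between the recoveries are given as a description with no test, because recovery libraries did the picking. The other 8 genes were listed for their function, but with earlier results of these data known, so their choice was not blind to the data.

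RNA was measured by sequencing in 12 libraries in 3 groups of 4. Cells of the DMSO recovery and UNC0642 recovery groups spent 24 h in RPMI-1640 without methionine but with serum, in the presence of DMSO or UNC0642, and then 24 h in RPMI-1640 with methionine, serum and no inhibitor. UNC0642 inhibits EHMT2 and EHMT1 (G9a and GLP), which methylate histone H3 at lysine 9, and its dose is not given in the sources used here. The group labelled 0 h carries no such treatment label, and the labels do not say whether it was collected before or at the end of the restriction, so time in culture, restriction and recovery cannot be told apart in a comparison with it. All groups are the same cell line, and no label says whether replicates were separate cultures, so p-values reflect only how these 12 samples scatter, and that scatter may be technical.

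Long-chain fatty acids enter a cell or are freed inside it, are carried through the cytosol by fatty acid binding proteins, and are activated to acyl-CoA by acyl-CoA synthetases. Acyl-CoA is then either passed to carnitine by CPT1 for oxidation in mitochondria or built into triglyceride, whose final step DGAT enzymes catalyse. Triglyceride is kept in lipid droplets coated with perilipins and is released by lipases, of which adipose triglyceride lipase acts on intact triglyceride. In the intestine some of these steps serve the uptake and packaging of dietary fat, whereas FABP6 is the bile acid binding protein of the ileum.

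Deposited counts summed to between 14658082 and 20179847 per library, and the biological coefficient of variation was 3.44%. Levels are given as CPM, the library-scaled read counts after TMM factors, which compare one gene between libraries, and as FPKM, which is per length and compares genes. Epithelial markers EPCAM, KRT8, KRT18, KRT19, CDH1, CDX2 and CLDN4 were present in every library, while VIL1 stayed under 1 CPM. The 8 epithelial markers summed to 5016 to 5137 CPM at 0 h and 5647 to 5881 CPM in the recoveries, and their part in the results was not tested. Keratins carried that sum, whereas EPCAM was lower in the recoveries without overlap (331.5 to 334.3 CPM at 0 h, 307.5 to 315.9 CPM with DMSO recovery and 289.2 to 298.2 CPM with UNC0642 recovery). Enterocyte markers FABP1, FABP2, APOA4, ALPI and SI summed to at most 0.181 CPM in any library. The 4 fibroblast markers summed to 19.6 to 37.5 CPM over all libraries, mostly COL1A1, which averaged 23.3 CPM at 0 h, 27.1 CPM with DMSO recovery and 28.2 CPM with UNC0642 recovery. COL1A2, the partner collagen chain, was instead highest at 0 h, with a mean of 2.80 CPM against 0.475 CPM with DMSO recovery and 1.30 CPM with UNC0642 recovery, and was above 1 CPM in 6 libraries, of which 3 were at 0 h, 1 in the DMSO recovery group and 2 in the UNC0642 recovery group. Libraries also fell into a class of 5 with a gap of 101 to 106 bases between gene length and effective length and a class of 7 with a gap of 120 to 127 bases, and each group held both. Bulk RNA does not separate fewer cells expressing a gene from less RNA per cell.

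Promoter windows are shown for the genes with the widest differences between groups, LIPG, FABP6 and ACSL5. They come from RefSeq (GRCh38.p14, not the hg18 build of the files) and run from 250 bases before to 50 after an annotated start, 5′ to 3′ on the strand of the gene. Capitals mark matches on either strand to the nuclear receptor hexamer AGGTCA, to its direct repeat spaced by 1 base (DR1, the PPAR element), to the sterol response element TCACNCCAC or to the E-box CACGTG. The windows are LIPG at chr18:49561807-49562106, FABP6 at chr5:160229256-160229555 and ACSL5 at chr10:112375018-112375317 and chr10:112375955-112376254, all on the plus strand.

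LIPG: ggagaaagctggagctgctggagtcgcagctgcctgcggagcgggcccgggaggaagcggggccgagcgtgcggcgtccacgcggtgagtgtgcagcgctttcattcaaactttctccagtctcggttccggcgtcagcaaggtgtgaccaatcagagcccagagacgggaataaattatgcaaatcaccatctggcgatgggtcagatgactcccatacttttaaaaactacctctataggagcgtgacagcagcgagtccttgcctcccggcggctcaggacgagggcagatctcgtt

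FABP6: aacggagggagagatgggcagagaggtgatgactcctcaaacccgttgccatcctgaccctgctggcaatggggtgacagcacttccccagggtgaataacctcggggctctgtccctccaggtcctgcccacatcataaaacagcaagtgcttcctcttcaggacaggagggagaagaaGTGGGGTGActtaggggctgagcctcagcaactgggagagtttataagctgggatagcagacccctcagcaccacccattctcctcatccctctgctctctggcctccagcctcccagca

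ACSL5, first start: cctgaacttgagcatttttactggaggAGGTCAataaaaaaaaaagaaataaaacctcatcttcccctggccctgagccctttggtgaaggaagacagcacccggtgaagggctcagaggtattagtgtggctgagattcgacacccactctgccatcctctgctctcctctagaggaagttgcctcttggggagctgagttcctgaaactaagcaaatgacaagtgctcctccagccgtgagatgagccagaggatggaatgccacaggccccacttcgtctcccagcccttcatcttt

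ACSL5, other start: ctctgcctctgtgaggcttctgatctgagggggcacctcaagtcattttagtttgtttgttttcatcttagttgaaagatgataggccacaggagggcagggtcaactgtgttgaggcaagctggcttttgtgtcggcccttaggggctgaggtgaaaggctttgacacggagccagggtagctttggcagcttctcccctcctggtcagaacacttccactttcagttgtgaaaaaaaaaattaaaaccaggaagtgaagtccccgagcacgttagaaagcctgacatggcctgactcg

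FABP6 held 1 match to the sterol response element, read on the minus strand and 70 bases before the start. Windows not shown also held that element, 1 of ACSL1 at 242 bases before its start and that of PNPLA2 at 153 bases before. The ACSL5 window that begins at 112375018 held 1 hexamer, 223 bases before its start, and neither the other ACSL5 window nor that of LIPG held any of the motifs. Of 35116 windows of 300 bases, 13.8% held the hexamer, 0.0228% the DR1, 1.13% the sterol response element and 7.26% the E-box. The LIPG window held 23 CpG dinucleotides, that of FABP6 3 and those of ACSL5 4 and 5, beside a median of 14 over all windows. Windows of the 10 genes on chromosome 8 were left out by plan, and FABP5 and DGAT1 have no window here. That left 13 windows for 8 of the 10 genes, and 5 of the 13 held a match. The share of all windows that held any of the motifs was not counted. A match describes letters in the window and says nothing of binding, and which start these cells use is not known from the files.

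**Figure D1:**
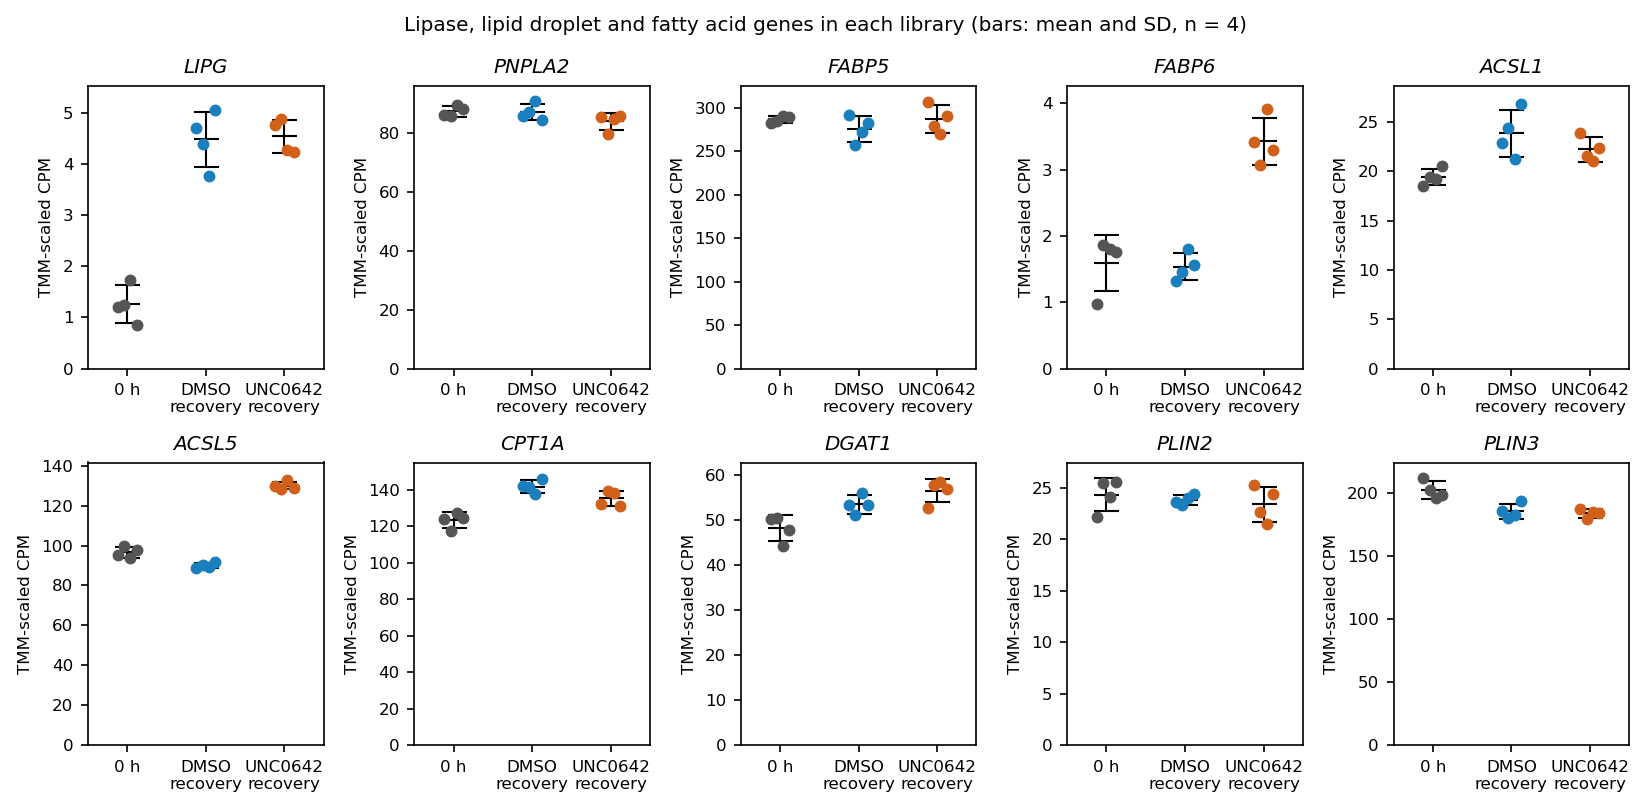
TMM-scaled CPM (vertical axes from 0, each gene on its own scale) in each of the 12 libraries, with points for libraries and bars for the mean and SD of 4. LIPG was higher than at 0 h in both recoveries, and FABP6 and ACSL5 stood above the other groups after UNC0642 recovery. The other genes moved by a small part of their level.

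LIPG encodes endothelial lipase, a secreted enzyme that acts mostly on phospholipids of lipoproteins. In the 0 h libraries it was at 1.21, 1.24, 1.74 and 0.841 CPM, from 12 to 25 counts. After DMSO recovery it was at 4.71, 4.39, 3.77 and 5.05 CPM. After UNC0642 recovery it was at 4.75, 4.88, 4.28 and 4.24 CPM. Every recovery library lay above every 0 h library, and the ranges of the recoveries overlapped. The level was 3.58-fold that of 0 h after DMSO recovery (1.84 ± 0.19 as log2 fold change with its SE, 4 libraries a group) and 3.62-fold after UNC0642 recovery (1.85 ± 0.19). Ordered by log2 fold change, LIPG stood at place 23 of 12741 genes in the former and 43 in the latter. LIPG was picked for these rises, so these places and the gap between the groups describe the pick and do not test it. Even in the recoveries it was the least abundant of the 10 per length, at 1.13 ± 0.135 FPKM and 1.14 ± 0.0866 FPKM (SD, n = 4).

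Between the recoveries LIPG differed by 0.02 ± 0.15 on the log2 scale, with a 95% interval of -0.28 to 0.31. Libraries of both recoveries picked LIPG, so this is a description with no test. Of the related extracellular lipases, LPL and LIPC had at most 2 counts in any library. LIPH, from the list of extracellular and lysosomal lipases, was present in all 3 groups and not called in any comparison. It averaged 5.15 CPM at 0 h and after DMSO recovery and 4.86 CPM after UNC0642 recovery. The genes whose profile over the 12 libraries was most like that of LIPG were SYNPO, CR2 and KRT7, with root mean square differences of 0.16, 0.23 and 0.28 on the centred log2 CPM scale, among 10739 genes. CR2, a complement receptor, was at 3.09 to 4.24 CPM at 0 h, 9.01 to 9.86 CPM after DMSO recovery and 9.57 to 10.8 CPM after UNC0642 recovery. Without the 6 libraries with COL1A2, which leaves 1 library at 0 h, the log2 fold changes of LIPG were 2.39 and 2.51 in the recoveries.

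FABP6 encodes the ileal bile acid binding protein. It was at 0.967, 1.86, 1.81 and 1.75 CPM at 0 h and at 1.32, 1.46, 1.80 and 1.57 CPM after DMSO recovery. After UNC0642 recovery it was at 3.42, 3.07, 3.91 and 3.30 CPM. The UNC0642 libraries lay above all others, whereas the DMSO libraries lay within the range of 0 h. FABP6 was thus higher in 1 of the recoveries only, and as it was picked for a rise, this is a description. The log2 fold change against 0 h was 1.11 ± 0.21 after UNC0642 recovery (2.16-fold) and -0.05 ± 0.24 after DMSO recovery, and between the recoveries it was 1.16 ± 0.20. These values rest on 16 to 33 counts at 0 h, 24 to 32 in the DMSO recovery group and 56 to 74 in the UNC0642 recovery group.

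The profiles most like that of FABP6 were those of FHAD1, ABCC2 and NRG1, with root mean square differences of 0.25, 0.25 and 0.30. ABCC2, an efflux pump of organic anions such as conjugated bile pigments, was at 30.5 to 36.6 CPM at 0 h, 33.7 to 38.7 CPM after DMSO recovery and 64.5 to 68.1 CPM after UNC0642 recovery. FABP6 stayed a small part of its family. Of the summed FPKM of FABP1 to FABP7 it made 0.553% at 0 h, 0.557% with DMSO recovery and 1.18% with UNC0642 recovery.

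FABP5, a carrier of fatty acids found in many epithelia, made 99.4% of that sum at 0 h and with DMSO recovery, and 98.7% with UNC0642 recovery. It was the most abundant of the 10 genes per length, at 509 ± 3.93 FPKM at 0 h, 517 ± 19.9 FPKM after DMSO recovery and 532 ± 20.6 FPKM after UNC0642 recovery. In CPM its libraries ranged from 283 to 290 at 0 h, from 258 to 293 in the DMSO recovery group and from 270 to 307 in the UNC0642 recovery group, and all groups overlapped. It was not called in any comparison, with log2 fold changes of -0.05 ± 0.03 (edgeR quasi-likelihood adjusted p = 0.212), 0.00 ± 0.03 (adjusted p = 0.976) and 0.05 ± 0.03 (adjusted p = 0.438). Its 95% intervals were -0.12 to 0.01, -0.07 to 0.07 and -0.01 to 0.12. Expected counts of FABP5 were whole (within 0.005) in none of the 12 libraries, as can happen where reads are shared with similar sequences. How many reads were shared was not measured, so how far its level is uncertain is not known. The same holds for PLIN3, whole in none, and in part for CPT1A, whole in 2 libraries, PNPLA2 in 3, PLIN2 and ACSL5 in 4 each and DGAT1 in 6.

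ACSL5, a long-chain acyl-CoA synthetase of the mitochondrial outer membrane and endoplasmic reticulum that is abundant in intestine, was the tested gene that set the recoveries apart. It was at 95.4, 99.9, 93.7 and 98.0 CPM at 0 h. After DMSO recovery it was at 89.0, 90.2, 89.1 and 91.5 CPM. After UNC0642 recovery it was at 130.1, 128.5, 132.7 and 128.9 CPM. The 3 groups did not overlap, with DMSO recovery lowest and UNC0642 recovery highest. Between the recoveries ACSL5 was 1.45-fold higher with UNC0642 (log2 fold change 0.53 ± 0.03, n = 4 per group, adjusted p = 5.41e-14, 4 of 4 libraries higher), at place 174 of 12741 by fold change. Against 0 h it rose 1.34-fold after UNC0642 recovery (0.43 ± 0.03, adjusted p = 1.53e-12) and fell by 0.10 ± 0.03 on the log2 scale after DMSO recovery (adjusted p = 0.0119).

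The difference between the recoveries was 0.53 in the libraries of the long gap, 0.54 in those of the short gap and 0.52 without the 6 libraries with COL1A2, and was called in each. The small fall after DMSO recovery was not called with libraries scaled by totals (-0.05, adjusted p = 0.227), with FPKM (-0.05, adjusted p = 0.155 to 0.158) or without 0 h replicate 2 (-0.09, adjusted p = 0.0533), over a range of 5.1e-05 to 0.227. With fewer libraries the fall was as large but not called, at -0.11 in short-gap libraries (adjusted p = 0.227) and -0.12 without the 6 libraries (adjusted p = 0.135).

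ACSL1, a synthetase linked to both oxidation and triglyceride synthesis, was higher in both recoveries. It was at 18.6, 19.4, 19.3 and 20.5 CPM at 0 h, at 22.9, 24.4, 21.2 and 26.9 CPM after DMSO recovery and at 23.9, 21.6, 21.04 and 22.4 CPM after UNC0642 recovery. Both recoveries lay above 0 h and overlapped each other. It rose 1.23-fold after DMSO recovery (log2 fold change 0.30 ± 0.07, adjusted p = 0.000804) and 1.15-fold after UNC0642 recovery (0.20 ± 0.07, adjusted p = 0.0231), and between the recoveries differed by -0.10 ± 0.07 (adjusted p = 0.471, 95% interval -0.24 to 0.03).

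Within the family of long-chain synthetases the leading transcript per length changed with the group. At 0 h ACSL3 was at 30.6 ± 1.07 FPKM and ACSL5 at 29.4 ± 0.856 FPKM, ranges that overlapped. After DMSO recovery ACSL3 led, at 37.4 ± 1.27 FPKM against 28.4 ± 0.456 FPKM of ACSL5. After UNC0642 recovery ACSL5 led, at 41.2 ± 0.730 FPKM against 34.1 ± 2.38 FPKM. ACSL5 made 34.9 to 36.4% of the summed FPKM of ACSL1, ACSL3, ACSL4, ACSL5 and ACSL6 over the 0 h libraries, 28.9 to 30.7% with DMSO recovery and 38.1 to 41.6% with UNC0642 recovery, so the groups did not overlap. ACSL3, a synthetase of nascent lipid droplets, fell by 0.14 ± 0.04 on the log2 scale between the recoveries (adjusted p = 0.0271), with overlap of the groups. That call was lost within either gap class, with FPKM, without the 6 libraries, and without DMSO replicate 2 or 4 or UNC0642 replicate 3 or 4 (log2 fold changes of -0.18 to -0.08 over all alternatives).

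**Figure D2:**
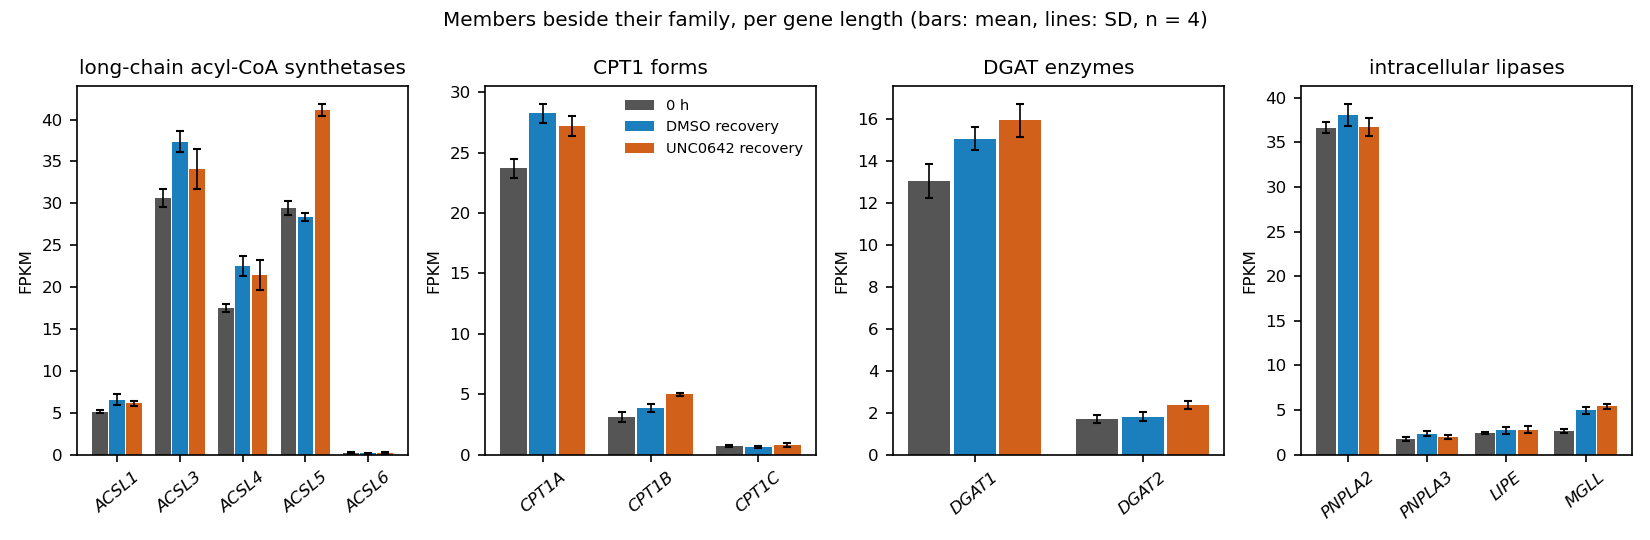
Mean FPKM with SD (n = 4, axes from 0) of genes beside their family, in gray for 0 h, blue for DMSO recovery and orange for UNC0642 recovery. ACSL5 is the highest synthetase after UNC0642 recovery at 41.2 FPKM and ACSL3 the highest after DMSO recovery at 37.4 FPKM, while CPT1A, DGAT1 and PNPLA2 lead their panels in every group.

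CPT1A, which links acyl groups to carnitine at the mitochondrial outer membrane and limits the rate of their import, was higher in both recoveries. It was at 123.8, 117.0, 127.2 and 124.5 CPM at 0 h, at 142.0, 141.2, 137.4 and 146.0 CPM after DMSO recovery and at 132.0, 139.2, 138.3 and 130.9 CPM after UNC0642 recovery. No recovery library fell within the range of 0 h, and the recoveries overlapped. It rose 1.15-fold after DMSO recovery (log2 fold change 0.20 ± 0.03, adjusted p = 7.29e-06) and 1.10-fold after UNC0642 recovery (0.14 ± 0.03, adjusted p = 0.00124). Between the recoveries it differed by -0.07 ± 0.03 (adjusted p = 0.267). After a trend on gene length was removed, the log2 fold change was 0.10 in the former (adjusted p = 0.0125) and 0.04 in the latter, which was no longer called (adjusted p = 0.374, range 1.87e-05 to 0.374).

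CPT1A made 86.1% of the summed FPKM of the CPT1 forms at 0 h, 86.4% with DMSO recovery and 82.4% with UNC0642 recovery. CPT1B, the form of muscle, rose between the recoveries from 10.1 to 13.1 CPM (log2 fold change 0.38 ± 0.09, adjusted p = 0.0104), a call lost within either gap class and without DMSO replicate 3. CPT1B lies beside CHKB, with which it shares read-through transcripts, so its reads are uncertain.

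DGAT1 joins acyl-CoA to diacylglycerol in the final step of triglyceride synthesis. It was at 50.2, 50.5, 44.2 and 47.8 CPM at 0 h, at 53.3, 51.0, 56.0 and 53.4 CPM after DMSO recovery and at 52.7, 57.7, 58.4 and 56.9 CPM after UNC0642 recovery. The recovery libraries lay above those of 0 h. It rose 1.11-fold after DMSO recovery (log2 fold change 0.15 ± 0.05, adjusted p = 0.0145) and 1.17-fold after UNC0642 recovery (0.23 ± 0.05, adjusted p = 0.000281), and the recoveries differed by 0.08 ± 0.05 (adjusted p = 0.428). DGAT2, the unrelated enzyme of the same reaction, made 11.5% of the summed FPKM of both at 0 h, 10.8% with DMSO recovery and 12.9% with UNC0642 recovery.

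Of the droplet coat genes, PLIN3 fell and PLIN2 was not called. PLIN3, a perilipin that is cytosolic until droplets form, was at 212.1, 202.8, 196.2 and 198.8 CPM at 0 h. It was at 185.9, 180.0, 182.7 and 193.4 CPM after DMSO recovery and at 187.8, 179.5, 185.3 and 184.1 CPM after UNC0642 recovery. All recovery libraries lay below all 0 h libraries. The fall was 0.13 ± 0.03 on the log2 scale after DMSO recovery (adjusted p = 0.00092) and 0.14 ± 0.03 after UNC0642 recovery (adjusted p = 0.000344). Between the recoveries PLIN3 differed by -0.01 ± 0.03 (adjusted p = 0.912, 95% interval -0.07 to 0.05).

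PLIN2, whose protein stays on droplets, ranged from 22.2 to 25.6 CPM at 0 h, from 23.3 to 24.4 CPM after DMSO recovery and from 21.5 to 25.2 CPM after UNC0642 recovery. Its groups overlapped in every comparison. Its log2 fold changes were -0.03 ± 0.06 (adjusted p = 0.749), -0.05 ± 0.06 (adjusted p = 0.511) and -0.03 ± 0.06 between the recoveries (adjusted p = 0.896). Per length PLIN3 exceeded PLIN2 by 7.003 ± 0.683 times at 0 h, 6.52 ± 0.121 times after DMSO recovery and 6.61 ± 0.444 times after UNC0642 recovery, ranges that overlapped. Some PLIN3 reads may have been shared out by estimate, given its fractional counts, and how many was not measured. PLIN1, the perilipin of fat cells, had at most 9 counts in any library.

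PNPLA2 encodes adipose triglyceride lipase. It ranged from 85.6 to 89.2 CPM at 0 h, from 84.3 to 90.7 CPM after DMSO recovery and from 79.6 to 85.7 CPM after UNC0642 recovery. It was not called against 0 h after DMSO recovery (log2 fold change 0.00 ± 0.04, adjusted p = 0.950, 95% interval -0.08 to 0.07) or UNC0642 recovery (-0.06 ± 0.04, adjusted p = 0.225), nor between the recoveries (-0.05 ± 0.04, adjusted p = 0.509). With a trend on gene length removed it fell by 0.10 after UNC0642 recovery (adjusted p = 0.0169, range 0.0169 to 0.957). PNPLA2 stood beside MGLL, the monoglyceride lipase that completes lipolysis, which rose from 11.6 CPM at 0 h to 20.4 CPM after DMSO recovery (log2 fold change 0.82 ± 0.08, adjusted p = 3.86e-10). After UNC0642 recovery MGLL was at 22.4 CPM (0.95 ± 0.08, adjusted p = 8.56e-12). Most of the lipolysis list did not follow MGLL past the test. After DMSO recovery 2 of 9 rose, which is 22.2% beside 22.4% of all genes that rose. After UNC0642 recovery 1 of 9 rose, which is 11.1% beside 23.4%. In both 0 fell, beside 21.7% and 23.6% of all genes, and the others, LIPE and ABHD5 among them, were not called. Of the summed FPKM of PNPLA2, PNPLA3, LIPE and MGLL, PNPLA2 made 84.3% at 0 h, 79.2% with DMSO recovery and 78.2% with UNC0642 recovery.

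Per length, the order at 0 h was FABP5, PLIN3, PNPLA2, ACSL5, CPT1A, DGAT1, PLIN2, ACSL1, FABP6 and LIPG, in which the ranges of DGAT1 (11.95 to 13.7 FPKM) and PLIN2 (11.6 to 13.4 FPKM) overlapped. After DMSO recovery ACSL5 (27.8 to 28.8 FPKM) and CPT1A (27.4 to 29.3 FPKM) overlapped, and DGAT1 (14.5 to 15.8 FPKM) lay above PLIN2 (12.7 to 13.3 FPKM). After UNC0642 recovery ACSL5 (40.5 to 42.2 FPKM) lay above PNPLA2 (35.3 to 37.2 FPKM), and ranges of FABP6 (5.81 to 7.32 FPKM) and ACSL1 (5.80 to 6.54 FPKM) overlapped. This order is a description of levels and was not tested.

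**Figure D3:**
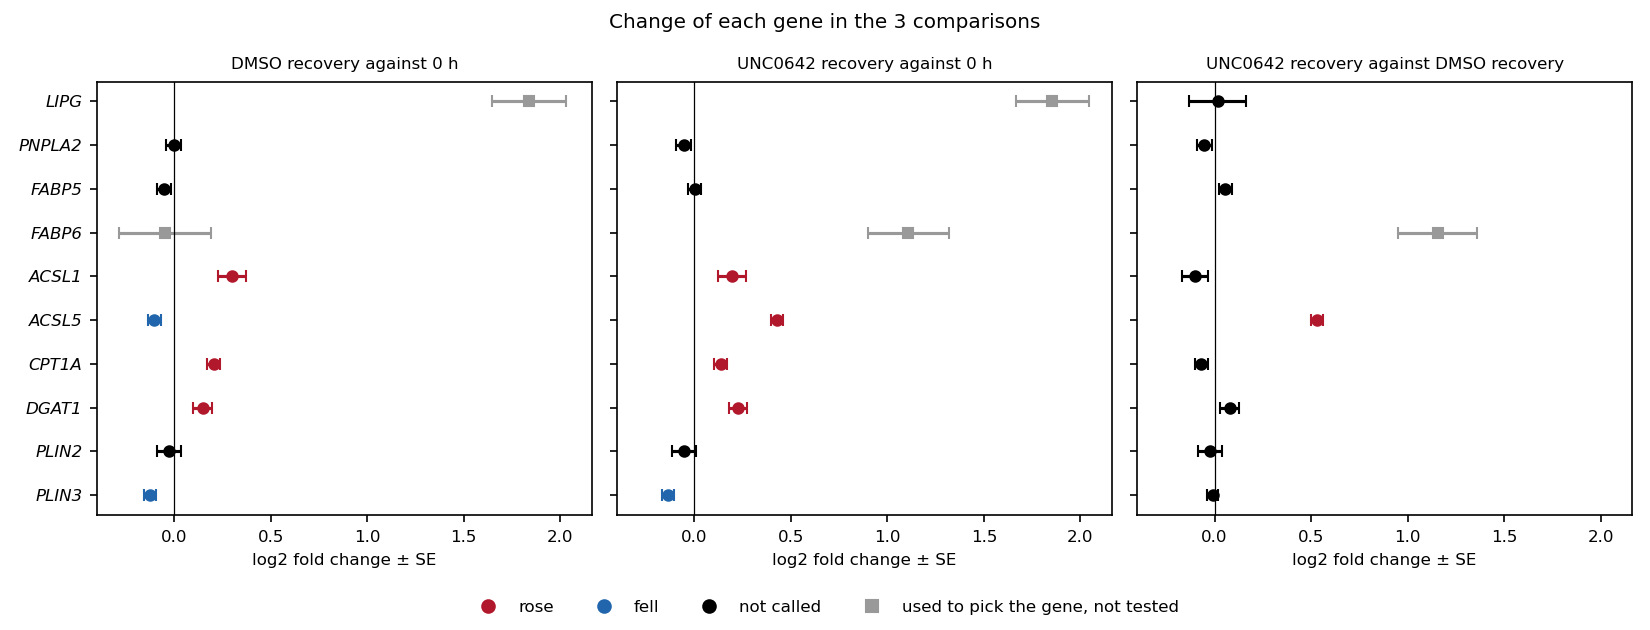
Log2 fold change with SE for each gene in the 3 comparisons, on 1 shared horizontal scale. Red circles rose, blue circles fell, black circles were not called and gray squares mark values that were used to pick the gene. LIPG between the recoveries is drawn as a black circle but is given as a description with no test. ACSL5 is the red circle at 0.53 in the comparison of the recoveries.

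DMSO recovery was first set against the 0 h label. Of the 8 genes not picked on it, CPT1A, ACSL1 and DGAT1 rose, PLIN3 and ACSL5 fell, and FABP5, PLIN2 and PNPLA2 were not called. That is 62.5% of 8 genes beside 44.1% of all genes tested (22.4% rose and 21.7% fell), and their median log2 fold change was -0.02 beside 0.01 over all genes. Groups did not overlap for the same 5 genes, beside 38.3% of all genes (19.3% higher and 19% lower). The call of DGAT1 was lost within either gap class, with the length trend removed, without the 6 libraries, and without 0 h replicate 3 or DMSO replicate 3 (adjusted p = 0.0571 to 0.269, and 0.00123 to 0.269 over all alternatives). Its log2 fold change was 0.21 in short-gap libraries and 0.16 without the 6 libraries, no smaller than with all libraries, but 0.09 in long-gap libraries and 0.07 with the trend removed. The calls of PLIN3 and ACSL1 were lost in short-gap libraries, where the lone DMSO library borrows the spread of the other groups, and without the 6 libraries (adjusted p = 0.132 to 0.255), at log2 fold changes of -0.09 and -0.11 for PLIN3 and 0.20 and 0.23 for ACSL1, and that of PLIN3 also with FPKM (-0.07).

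Against the same 0 h libraries, UNC0642 recovery had 4 of the 8 genes higher (ACSL5, CPT1A, DGAT1 and ACSL1), PLIN3 lower and FABP5, PLIN2 and PNPLA2 not called. The share was again 62.5%, beside 47% of all genes (23.4% rose and 23.6% fell), with a median of 0.07 beside 0.01. For the same 5 genes the groups did not overlap, beside 40.2% of all genes (20.1% higher and 20.1% lower). The call of ACSL1 was lost within either gap class, with the length trend removed, without the 6 libraries, and without 0 h replicate 1 or UNC0642 replicate 1 (adjusted p = 0.0729 to 0.475, and 0.00373 to 0.475 over all alternatives). Its log2 fold change was 0.22 in short-gap and 0.16 in long-gap libraries, 0.14 without the 6 libraries and 0.12 with the trend removed. Without the 6 libraries ACSL5 alone of the 8 was called as risen, and in short-gap libraries CPT1A (0.06, adjusted p = 0.313) and PLIN3 (-0.09, adjusted p = 0.112) were not called.

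UNC0642 recovery against DMSO recovery asks what the inhibitor during restriction changed. Of the 8 genes not picked on their rise, ACSL5 rose and the others were not called. That is 1 of 8 genes, beside 4.58% of all genes (2.06% rose and 2.53% fell). By edgeR none fell, by DESeq2 and limma-voom also 0, and at an unadjusted edgeR p under 0.05 CPT1A alone was lower. ACSL5 was also the 1 gene of the 8 whose groups did not overlap, beside 10.5% of all genes (5.05% higher and 5.42% lower). The intervals of the others allow differences of up to 0.24 in size on the log2 scale for ACSL1, and less for the rest.

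The rest of the pathway was read from 9 lists of other genes, of which 153 were in the tables and 115 were tested. After DMSO recovery 35 rose and 15 fell, which is 43.5% of 115 beside 44.1% of all genes. After UNC0642 recovery 33 rose and 13 fell, which is 40% beside 47%. Rises outnumbered falls in the lists. Over all genes 22.4% rose and 21.7% fell after DMSO recovery, and 23.4% rose and 23.6% fell after UNC0642 recovery. The median log2 fold changes of the 115 were 0.06 and 0.08, beside 0.01 for all genes in both. With libraries scaled by totals, 47 rose and 8 fell after DMSO recovery, and 48 rose and 10 fell after UNC0642 recovery. That scaling moved all genes the same way, with 3825 risen and 1838 fallen after DMSO recovery and 4072 and 1959 after UNC0642 recovery. Rises then made 67.5% of all calls in both, beside 50.8% and 49.8% in the main test. The lists were not counted with the length trend removed.

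Extracellular and lysosomal lipases and their regulators had 6 of 8 genes higher in the DMSO recovery group and 5 of 8 in the UNC0642 recovery group. The others were not called. These rises made 75% and 62.5% of the list, beside 22.4% and 23.4% of all genes, and the list was not tested as a set. LIPA, the lysosomal acid lipase, rose from 33.7 to 42.2 CPM after DMSO recovery (log2 fold change 0.32 ± 0.05) and to 41.8 CPM after UNC0642 recovery. LMF1, a chaperone that matures lipases of the LIPG family in the endoplasmic reticulum, rose from 2.99 to 4.99 CPM (0.75 ± 0.16) and 5.33 CPM. FURIN, a protease that cleaves and inactivates such lipases, rose from 65.9 to 75.6 CPM (0.20 ± 0.04) and 80.6 CPM. The adjusted p of these 3 genes ranged from 4.49e-07 to 0.000284, and the calls of LMF1 were lost without the 6 libraries and, after DMSO recovery, in short-gap libraries.

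Uptake and binding genes were mixed, with 4 higher and 2 lower of 12 in the DMSO recovery group and 2 and 2 in the UNC0642 recovery group. That is 50% and 33.3% called, beside 44.1% and 47% of all genes. SLC27A2, an acyl-CoA synthetase and transporter of very long-chain fatty acids, rose from 17.1 to 27.05 CPM (0.66 ± 0.07, adjusted p = 8.63e-09) and 28.1 CPM (0.72 ± 0.07, adjusted p = 1.18e-09). SLC27A4, the main such protein of intestine, fell from 66.5 to 55.1 CPM after DMSO recovery (-0.27 ± 0.05, adjusted p = 3.34e-05) and to 58.8 CPM after UNC0642 recovery (-0.18 ± 0.05, adjusted p = 0.00312). Its calls were lost in short-gap libraries, and after UNC0642 recovery also without the 6 libraries and with FPKM.

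Synthetases and thioesterases had 6 higher and 3 lower of 12 in the DMSO recovery group and 7 and 2 in the UNC0642 recovery group. That is 75% called in each, beside 44.1% and 47% of all genes. ACSS2, which makes acetyl-CoA from acetate, rose from 19.9 to 30.3 CPM (0.60 ± 0.07, adjusted p = 4.41e-09) and 28.6 CPM. ACOT9, a mitochondrial thioesterase, fell from 69.2 to 55.2 CPM (-0.33 ± 0.04, adjusted p = 1.03e-07) and 56.0 CPM.

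In triglyceride synthesis 4 rose and 3 fell of 13 after DMSO recovery, and 4 and 2 after UNC0642 recovery. The shares called were 53.8% and 46.2%, beside 44.1% and 47% of all genes. AGPAT5, a lysophosphatidic acid acyltransferase, fell from 193.9 to 150.4 CPM (-0.37 ± 0.03, adjusted p = 1.37e-11) and 157.4 CPM, while AGPAT3 of the same family rose from 72.8 to 90.6 CPM (0.32 ± 0.04, adjusted p = 3.58e-08) and 96.1 CPM. LPIN1, a phosphatidate phosphatase upstream of DGAT1, rose from 16.7 to 23.9 CPM after DMSO recovery (0.51 ± 0.07, adjusted p = 3.2e-07) and was at 18.7 CPM after UNC0642 recovery. Between the recoveries LPIN1 fell by 0.35 ± 0.07 (adjusted p = 0.00064), a call lost in short-gap libraries.

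**Figure D4:**
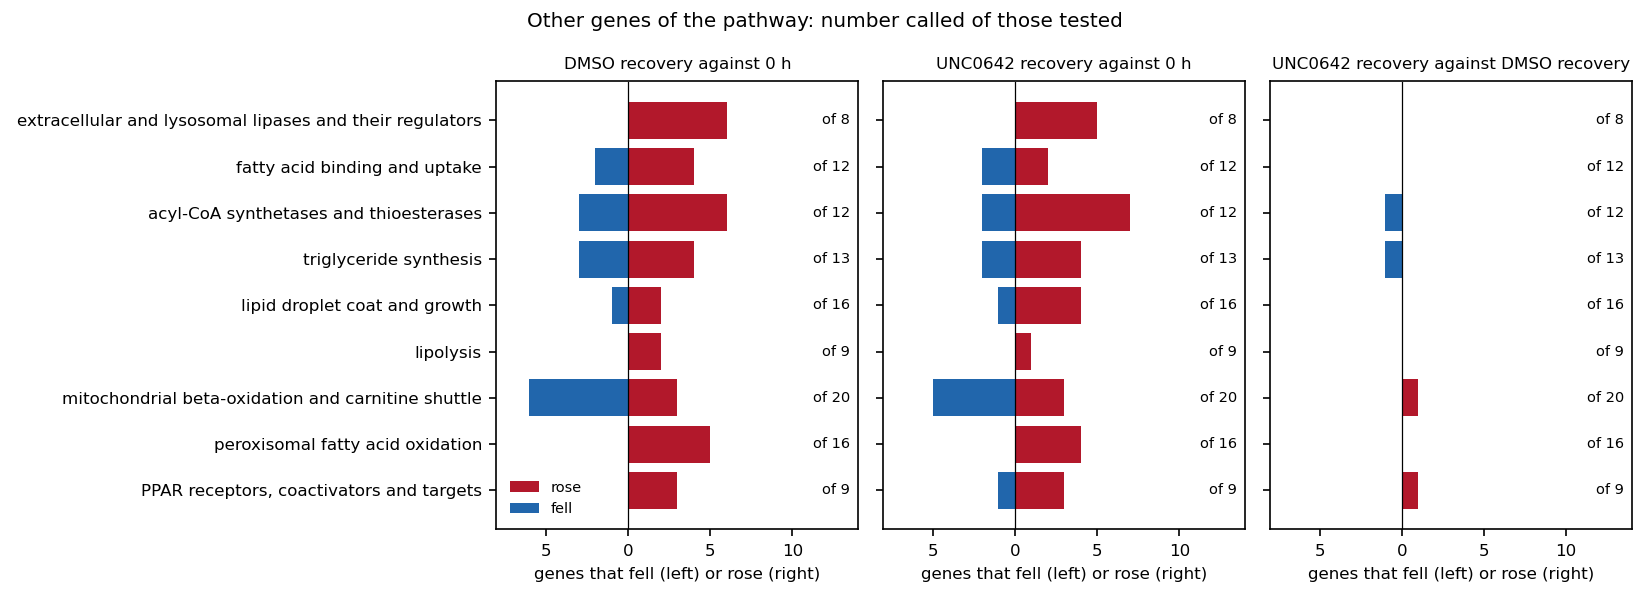
Number of other pathway genes that rose (red, right) or fell (blue, left) of those tested in each list, in the 3 comparisons. Against 0 h the lipase, lipolysis and peroxisomal lists have rises and no falls. Mitochondrial oxidation has more falls than rises (3 higher and 6 lower of 20 after DMSO recovery). Over all genes 22.4% rose and 21.7% fell after DMSO recovery, and 23.4% and 23.6% after UNC0642 recovery. Between the recoveries there are 4 calls in all, which is 3.48% of 115 genes beside 4.58% of all genes.

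In mitochondrial oxidation 3 rose and 6 fell of 20 after DMSO recovery, and 3 and 5 after UNC0642 recovery. The shares called were 45% and 40%, beside 44.1% and 47% of all genes. ACADVL, the dehydrogenase that takes up long-chain acyl-CoA first, rose from 147.9 to 176.4 CPM (0.25 ± 0.03, adjusted p = 1.87e-07) and 176.3 CPM. ETFB, which carries electrons away from such dehydrogenases, fell from 85.3 to 66.7 CPM (-0.36 ± 0.04, adjusted p = 1.01e-08) and 67.0 CPM. Peroxisomal genes had 5 of 16 higher in the DMSO recovery group and 4 of 16 in the UNC0642 recovery group with the others not called. Their rises made 31.2% and 25%, beside 22.4% and 23.4% of all genes. CRAT, which moves short acyl groups to carnitine, rose from 18.0 to 25.2 CPM (0.49 ± 0.06, adjusted p = 1.41e-07) and 24.9 CPM.

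Droplet coat and growth genes had 2 higher and 1 lower of 16 in the DMSO recovery group and 4 and 1 in the UNC0642 recovery group. That is 18.8% and 31.2% called, beside 44.1% and 47% of all genes. TMEM159, a partner of seipin in droplet formation, rose from 14.4 to 17.7 CPM (0.30 ± 0.07, adjusted p = 0.000804) and 17.2 CPM (0.25 ± 0.07, adjusted p = 0.00336). Both calls were lost without the 6 libraries and within 1 of the gap classes. Of PPAR genes 3 of 9 rose after DMSO recovery, and 3 rose and 1 fell after UNC0642 recovery. The shares called were 33.3% and 44.4%, beside 44.1% and 47% of all genes. PPARA, the nuclear receptor that drives CPT1A in liver, rose from 12.1 to 19.8 CPM (0.72 ± 0.08, adjusted p = 1.85e-08) and 17.2 CPM (0.51 ± 0.09, adjusted p = 7.82e-06).

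Between the recoveries 4 of the 115 genes were called, which is 3.48% beside 4.58% of all genes. CPT1B and PPARD rose, and LPIN1 and ACSL3 fell. PPARD, a receptor for fatty acids, went from 59.0 CPM after DMSO recovery to 66.6 CPM after UNC0642 recovery (log2 fold change 0.17 ± 0.04, adjusted p = 0.0085), a call lost within either gap class and without the 6 libraries.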

How the data were processed

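The deposited tables hold, per gene and library, expected counts (RSEM estimates), FPKM and gene and effective lengths, per the file headers. RSEM 1.2.4, Bowtie and hg18 are named in the submitters' processing notes, and the strand setting is not given in the sources used here. FPKM was used as the authors deposited it, only to compare genes and in 2 alternatives.

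Groups and replicate numbers came from the sample titles. Expected counts were rounded, filtered with filterByExpr (12741 of 18969 genes kept), scaled with TMM factors and tested with edgeR 4.0.16 (quasi-likelihood, R 4.3.3), fitting 1 mean for each group to the 12 libraries together. Tests were two-sided, with Benjamini-Hochberg adjustment over all genes tested and a call at an adjusted p under 0.05. Intervals span 1.96 SE on each side.

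The 10 genes and the pathway lists were chosen with earlier results of these data known. Named genes were the 10, up to 3 called genes of smallest p per list and comparison (a selection is given), and the 3 nearest profiles of LIPG and FABP6. The first plan tested LIPG and FABP6 between the recoveries, and those tests are left out because recovery libraries picked both genes. Family members outside the lists' rule, such as DGAT2, LPL and PLIN1, were named after their values were seen.

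Replicate numbers did not pair the samples: deviations of same-numbered libraries correlated at -0.153 to 0.065 over 12 pairs. No 2 libraries of a group were alike within counting error (chi-square over its degrees of freedom from 2.04 up to 3.56 in 18 pairs). Alternatives (29) used other scalings, filters, lengths, blocks and libraries, limma 3.58.1 and DESeq2 1.42.0.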

Additional observations from a re-analysis of the deposited data

Results flagged for a closer look

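FABP6 in 0 h replicate 1 was at 0.967 CPM, apart from the other 0 h libraries at 1.75 to 1.86 CPM, and the gap made 0.883 of the range of the group, above Dixon's critical value for 4 samples. Among 30 groups looked at (10 genes in 3 groups) this was the 1 so marked, and chance marks about 1 in 20.

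ACSL5 changed differently from 0 h in the recoveries. It was higher than 0 h after UNC0642 recovery and lower after DMSO recovery, and the difference of 0.53 on the log2 scale was tested directly between the recovery groups (adjusted p = 5.41e-14, edgeR). It lay between 0.52 and 0.54 over the 29 alternatives.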

How the results depend on the processing

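Of 870 values of the 10 genes under the alternatives, 834 kept their call or lack of one, or for picked values stayed within the spread between replicates. Another 30 lost a call, 1 gained one and 5 moved by more than that spread. No called value changed sign, but uncalled ones could, as PLIN2 after DMSO recovery did (-0.10 to 0.03). Leaving out each library in turn gave 2 to 3 genes that rose and 1 to 2 that fell after DMSO recovery, 3 to 4 that rose and 1 to 1 that fell after UNC0642 recovery, and 1 to 1 and 0 to 0 between the recoveries. After DMSO recovery 1 gene rose (3 in the main test) in short-gap libraries and 1 without the 6 libraries with COL1A2. There 1 fell (2 in the main test) with library totals, and 0 in short-gap libraries, without the 6 libraries and with log2(FPKM + 1) or log2(FPKM + 0.1), and the cause was not tested. After UNC0642 recovery 2 rose (4 in the main test) and 2 fell (1 in the main test) with the length trend removed, 2 rose and 0 fell in short-gap libraries, and 1 rose and 0 fell without the 6 libraries, which leaves 1 library at 0 h, 3 in the DMSO recovery group and 2 in the UNC0642 recovery group. Of the pathway lists, 18 genes rose and 8 fell after DMSO recovery, 15 and 5 after UNC0642 recovery, and 1 and 1 between the recoveries without the 6 libraries, and 8 fell after DMSO recovery with library totals. FABP6 against 0 h after DMSO recovery was at -0.43 in short-gap libraries. On the log2(FPKM + 1) scale, which understates low genes, LIPG was at 0.71 and 0.72 against 0 h.

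With the replicate block no call among the 10 genes changed, ACSL5 between the recoveries was at 0.53, and 5668, 5998 and 633 genes were called in all, beside 5617, 5990 and 584. No library matched best with its own replicate number in another group. Of all calls after DMSO recovery 50.8% were rises, 67.5% with library totals, 68.5% with log2(FPKM + 1) and 31.9% with the length trend removed, and after UNC0642 recovery 49.8%, 67.5%, 67.3% and 31.8%. After DMSO recovery 2766 of all genes fell, 1838 with totals, 1698 and 1701 with FPKM and 4237 with the length trend removed, and after UNC0642 recovery 3007 fell, 1959 with totals and 1885 and 1883 with FPKM. In short-gap libraries 1348 rose and 1354 fell after DMSO recovery (2851 and 2766 in the main test) and 1972 rose after UNC0642 recovery (2983). Without the 6 libraries these were 1424 and 1563, and 1324 and 1512 after UNC0642 recovery. Between the recoveries 262 rose and 322 fell, 125 and 146 in long-gap libraries, 57 and 68 in short-gap libraries and 123 and 154 without the 6 libraries, and 201 and 194 fell with FPKM.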
